A study of Mus musculus with 8 samples.

Results

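The genes described here are 50 members of the machinery that removes maternal mRNA: genes of deadenylation, terminal uridylation, m6A reading, decapping, the RNA exosome and small RNA silencing. They were chosen by gene symbol from this list of functions and not by their expression, though with earlier results of these data known. All 50 were found among the 37310 genes of the count tables, had reads in all 8 libraries and were among the 14970 genes tested. Their levels were compared between mouse embryos labelled as double knockouts of Gadd45a and Gadd45b (DKO) and wild-type embryos, all at the 2-cell stage and of the C57BL/6N strain. GADD45 proteins are small factors induced by stress, with known roles in cell cycle arrest, DNA demethylation and repair.

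There were 4 DKO and 4 wild-type pools, and each pool held the embryos of 1 litter, with 23, 27, 28 and 35 DKO embryos and 23, 30, 25 and 25 wild-type embryos in replicates 1 to 4. Females of 3 to 4 weeks had been superovulated and mated naturally, and embryos were taken 20 h after the vaginal plug was seen. DKO embryos came from DKO females and wild-type embryos from wild-type females, so loss of the maternal gene products and loss of the embryonic ones cannot be told apart. The RNA of a whole pool was measured, so fewer cells that carry a transcript and less of it per cell cannot be told apart either. Because polyA RNA was measured, the amount of a transcript and the length of its tail are likewise not separated.

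An mRNA in the cytoplasm is protected by its cap and by poly(A)-binding proteins on its tail. Decay usually begins when deadenylases shorten the tail, above all the CCR4-NOT complex and the PAN2-PAN3 pair. Uridyltransferases then mark the short tail, decapping enzymes open the transcript to the exonuclease XRN1, and the exosome degrades it from the other end. Readers of m6A, a methyl mark on adenosine within mRNA, and the factors of small RNA silencing bring these enzymes to chosen transcripts. In the mouse oocyte and early embryo this system clears the RNA that the oocyte stored, and BTG4, an adaptor made at meiotic maturation, is needed to bring CCR4-NOT to that RNA. The mRNAs of several decay factors are themselves stored in the oocyte and translated once their tails are lengthened, through cytoplasmic polyadenylation elements near the poly(A) signal.

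The promoters of 3 members are shown because Btg4, Pabpc1l and Pan3 had, once their values were seen, differences between the genotypes among the largest of the list, and because they differ in CpG content, the dinucleotide that DNA methylation acts on. Each runs 5′ to 3′ on the strand of its gene, from 250 bases before the annotated start to 50 after it, in RefSeq's annotation of GRCm38.p6. The Btg4 promoter is chr9:51115751-51116050 on the + strand, that of Pabpc1l is chr2:164024974-164025273 on the + strand, and that of Pan3 is chr5:147429906-147430205 on the + strand. Capitals mark each CpG.
Btg4: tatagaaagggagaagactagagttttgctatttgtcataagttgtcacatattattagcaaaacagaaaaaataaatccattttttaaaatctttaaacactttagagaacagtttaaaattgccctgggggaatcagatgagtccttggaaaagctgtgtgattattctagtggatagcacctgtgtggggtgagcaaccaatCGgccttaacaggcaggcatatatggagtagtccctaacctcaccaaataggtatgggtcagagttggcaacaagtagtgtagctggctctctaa
Pabpc1l: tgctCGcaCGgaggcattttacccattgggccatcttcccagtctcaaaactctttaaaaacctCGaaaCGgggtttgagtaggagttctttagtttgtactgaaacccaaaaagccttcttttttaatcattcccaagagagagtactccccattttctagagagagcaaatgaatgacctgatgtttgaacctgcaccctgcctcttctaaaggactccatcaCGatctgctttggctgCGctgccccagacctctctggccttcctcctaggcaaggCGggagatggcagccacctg
Pan3: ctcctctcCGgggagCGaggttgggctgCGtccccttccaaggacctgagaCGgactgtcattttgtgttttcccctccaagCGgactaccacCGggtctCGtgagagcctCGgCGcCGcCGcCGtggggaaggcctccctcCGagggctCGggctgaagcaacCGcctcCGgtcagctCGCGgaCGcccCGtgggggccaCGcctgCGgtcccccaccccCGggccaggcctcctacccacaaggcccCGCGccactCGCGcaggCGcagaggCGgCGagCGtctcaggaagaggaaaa
The Btg4 promoter holds 1 CpG in 300 bases, and 3.69% of the 13565 promoters of tested genes hold as few or fewer. That of Pabpc1l holds 7, that of Pabpn1l, the other oocyte-type poly(A)-binding gene of the list, holds 5, and that of Pan3 holds 31. RefSeq promoters were matched for 39 members, 48 promoters in all, with a median of 25.5 CpG against 19 for the promoters of tested genes. The promoters of these 3 oocyte-type genes were below the median of tested genes. As few or fewer CpG than in Pabpn1l are held by 16.5% of the promoters of tested genes, and than in Pabpc1l by 21.64%. Low CpG was not particular to these 3, as Cnot2 and Cnot8 each have 1 promoter with 3 CpG, besides others with more. The ETS-type word CCGGAAG was present on either strand of 15 member promoters (31.2%), among them those of Dcp1a, Dis3, Mettl3, Parn and Tut7, and of 16.31% of the promoters of tested genes. The homeodomain word TAATTG, of the type bound by the oocyte factor NOBOX, was present in 2 (4.2%), those of Cnot11 and Ythdf2, and in 5.33% of the promoters of tested genes.

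The ends of 4 member transcripts are shown because signals near the end of a stored mRNA can set its tail length. Whether these sequences do so was not tested. Each is 30 bases, 5′ to 3′, from the GENCODE M21 annotation of GRCm38, and capitals mark the cytoplasmic polyadenylation element nearest to the poly(A) signal and, where it falls within the window, the poly(A) signal AATAAA. The windows are chr9:51119482-51119511 (+ strand) for Btg4, chr5:147548467-147548496 (+ strand) for Pan3, chr11:58118551-58118580 (+ strand) for Cnot8 and chr8:40492550-40492579 (− strand) for Cnot7, each in the 3′ UTR of its gene.
Btg4: gtaaaaTTTTATgaacactagtgaatatag
Pan3: tattTTTTAATaaagaattgcagaAATAAA
Cnot8: ttatgtTTTTAATtttgtaaAATAAAgatt
Cnot7: aaagcttttgtaAATAAAggcttcaaaaat
The elements searched were TTTTAT and TTTTAAT, on the transcript strand, from 100 bases before the signal to the end of the signal. An element that overlaps the signal, as in Dcp1a, was therefore counted. Btg4 has 2, the nearer of them 60 bases before its signal, Pan3 has 1 at 13 bases and Cnot8 has 1 at 7 bases. Its paralogue Cnot7 has none in that window. Of the 44 members with a poly(A) signal, 13 (29.5%) hold such an element, against 1988 of the 10014 tested genes with a signal (19.9%). Exosc3, Exosc8, Pan2, Dcp1a, Patl1, Mettl14, Ythdf2, Dicer1, Ago2 and Exosc4 are the other members that hold one.

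Libraries held 21329736 to 23919114 counts and 18433 to 20427 detected genes, and the 50 members took 0.842% to 1.22% of the counts of a DKO library and 0.692% to 0.900% of those of a wild-type library. Gadd45b counts were 4, 14, 1 and 6 in DKO and 910, 946, 1395 and 808 in wild-type pools, which matches the labels (log2 fold change or log2FC, DKO minus wild-type, −7.33 ± 0.42 SE; adjusted p in edgeR 5.63e-07). Gadd45a RNA was still counted in the DKO pools, at 237, 247, 163 and 201 counts, against 482, 341, 502 and 468 in wild-type pools. Every DKO pool was below every wild-type pool, but the difference was not past the threshold in edgeR (log2FC −1.09 ± 0.22, SE, adjusted p = 0.303), and it is not known here whether these reads lie outside the deleted part of the gene. Transcripts of the 2-cell stage were present in all pools, at summed levels of 833 to 1227 CPM (counts scaled to library size and composition) in DKO and 612 to 1086 CPM in wild-type, for 10 marker genes found of 14. Of 12 cumulus and granulosa cell markers, Ptx3, Inhba, Amh and Foxl2 were at 0 in all pools, and the 12 together reached 8.43 to 14.6 CPM in DKO and 9.65 to 13.8 CPM in wild-type. Of 7 sperm markers Smcp was at 0 in all pools, and their sum was 1.11 to 2.37 CPM in DKO and 0.518 to 1.47 CPM in wild-type. The library of DKO replicate 1 deviated most from the others, with a quality weight of 0.365 in limma-voom where the other 7 had 0.786 to 2.08. For many of the genes in which it was the extreme pool, though not all, the log2FC is also given without it.

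The decay machinery was present at high levels in embryos of both genotypes. Per kilobase of exon, the median member had 11.1 CPM over the 8 pools, against 2.90 CPM for the 14415 tested genes with an annotated length, and 39 of the 50 were above that median. Btg4 (ENSMUSG00000032056, chromosome 9) was by far the highest, at 1597 ± 552 CPM per kilobase in DKO and 921 ± 314 in wild-type (mean ± SD of 4 pools), above 99.83% of tested genes. Next came the catalytic deadenylases of CCR4-NOT, Cnot7 with 190 ± 36.2 CPM per kilobase in DKO and 158 ± 20.5 in wild-type, and Cnot8 with 186 ± 40.2 in DKO and 235 ± 50.05 in wild-type (mean ± SD of 4 pools). In DKO these neighbours in the order did not differ beyond their spread, while in wild-type Cnot8 was the higher by more than either SD. In CPM not divided by exon length, Cnot7 was the higher in all 8 pools. The exosome cap subunit Exosc3 followed with 131 ± 16.8 CPM per kilobase in DKO and 144 ± 17.2 in wild-type (mean ± SD of 4 pools).

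At the other end were Edc3, an enhancer of decapping, with 0.416 CPM per kilobase in DKO and 0.297 in wild-type, Dis3l2, the exonuclease that degrades uridylated RNA, with 0.188 in DKO and 0.132 in wild-type, and Dcp1b, a decapping cofactor, with 0.124 in DKO and 0.126 in wild-type. These rest on few reads, with 143 counts of Dcp1b over all 8 libraries and 5 in the lowest. Btg4 made up a large share of all reads of the list, at 50.6%, 33.2%, 44.2% and 35.1% of member counts in DKO replicates 1 to 4 and 29.6%, 27.5%, 38.0% and 19.5% in wild-type replicates 1 to 4. Without Btg4, the other 49 members took 0.562% to 0.605% of a DKO library and 0.557% to 0.578% of a wild-type library.

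**Figure D1:**
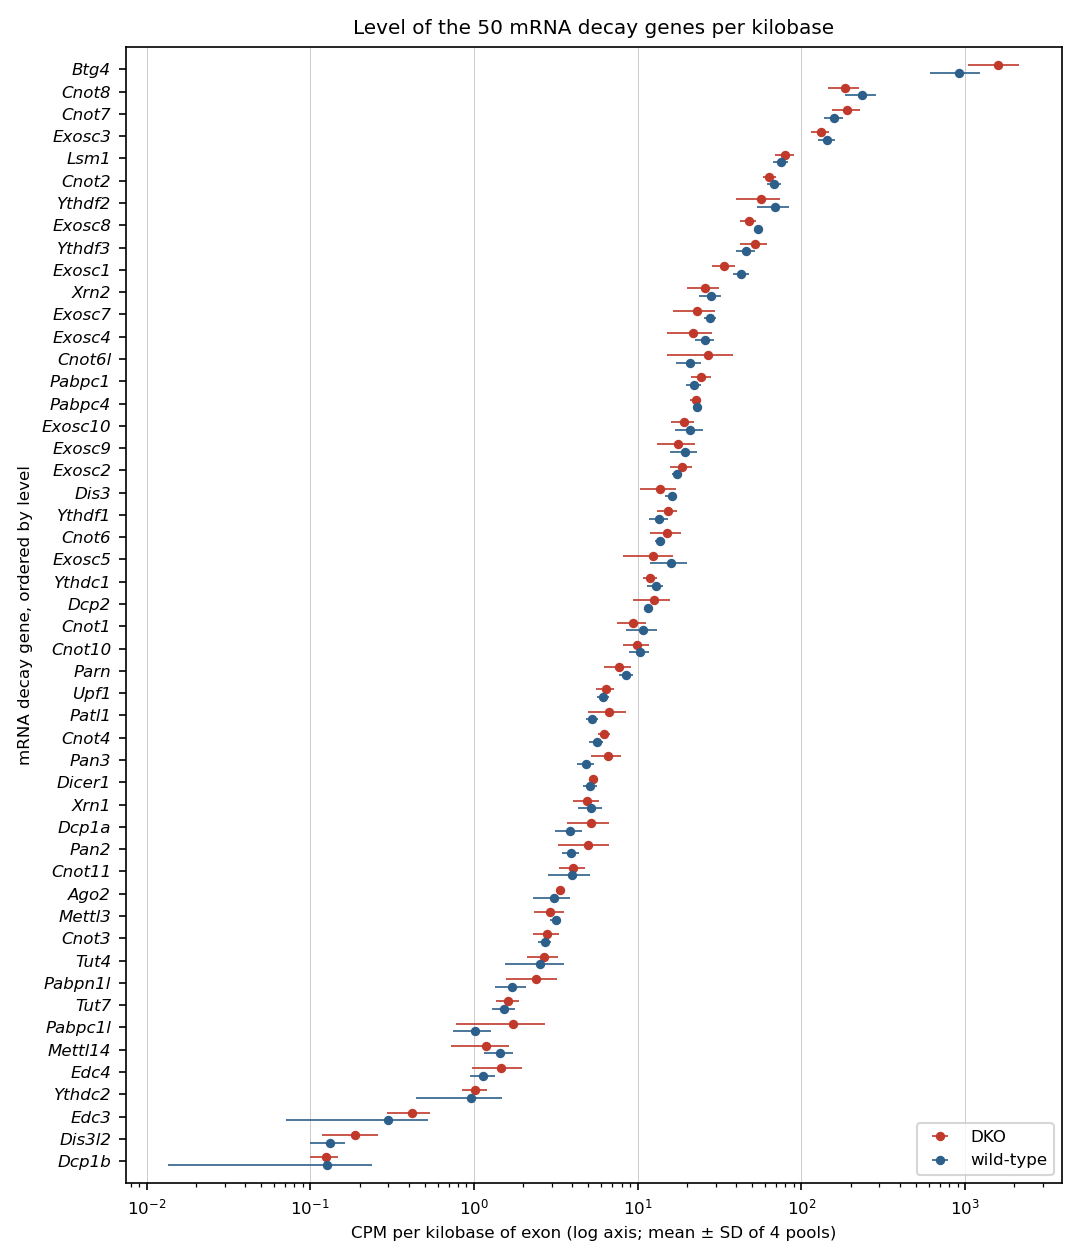
Level of each of the 50 genes as CPM per kilobase of exon on a log axis, with the mean and SD of 4 DKO pools (red, upper point of each pair) and of 4 wild-type pools (blue, lower point). Btg4 stands at 1597 in DKO and 921 in wild-type, and Dcp1b, the lowest, at 0.124 in DKO and 0.126 in wild-type.

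No member differed between the genotypes past the threshold. edgeR called 0 of the 50 at an adjusted p of 0.05, where it called 4 of all 14970 genes (0.0267%), and the smallest adjusted p of a member was 0.469. DESeq2 called 0 members and 49 of 18543 genes (0.264%), and limma-voom called 0 members and 5 genes (0.0334%). At an unadjusted p under 0.05 edgeR gave 3 members (6.0%), against 10.2% of all genes tested. DESeq2 and limma-voom gave 3 members each, against 1798 and 1654 of the 14970 genes tested in edgeR. The 3 in edgeR were Btg4 and Pan3, higher in DKO, and Exosc1, lower in DKO, against backgrounds of 5.79% higher and 4.44% lower. Pan3 was the only member whose 4 DKO pools did not overlap the 4 wild-type pools, 2.0% of the list, where 5.34% of all genes did not overlap (2.79% higher and 2.55% lower in DKO).

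The size of the differences was bounded. For 44 of the 50 members the 95% interval of the fold change lay within 2-fold in both directions, as it did for 8667 of the 14970 tested genes. These intervals are not adjusted for the number of genes. The 6 others were Btg4, Pabpn1l, Pabpc1l, Dis3l2, Edc3 and Dcp1b, for all of which the upper bound lay beyond 2-fold, up to a log2 value of 1.60 for Pabpc1l. The lower bound of Dcp1b, at −1.45, also lay beyond 2-fold. Fold changes were positive for 28 members and negative for 22, with a median log2FC of 0.05 and a range from −0.36 to 0.79. Over all tested genes 51.18% were positive and the median was 0.01. Without DKO replicate 1 the members' median was 0.0067, with 26 positive. In that edgeR fit 1 member was left at an unadjusted p under 0.05, against 858 of the 14970 tested genes. The member count was also 1 without wild-type replicate 2, reached 9 when DKO replicate 2 was left out, and was 5 with wild-type replicate 3 left out. Counts over all tested genes in those other fits are not given here, so these changes are not read as particular to the list.

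**Figure D2:**
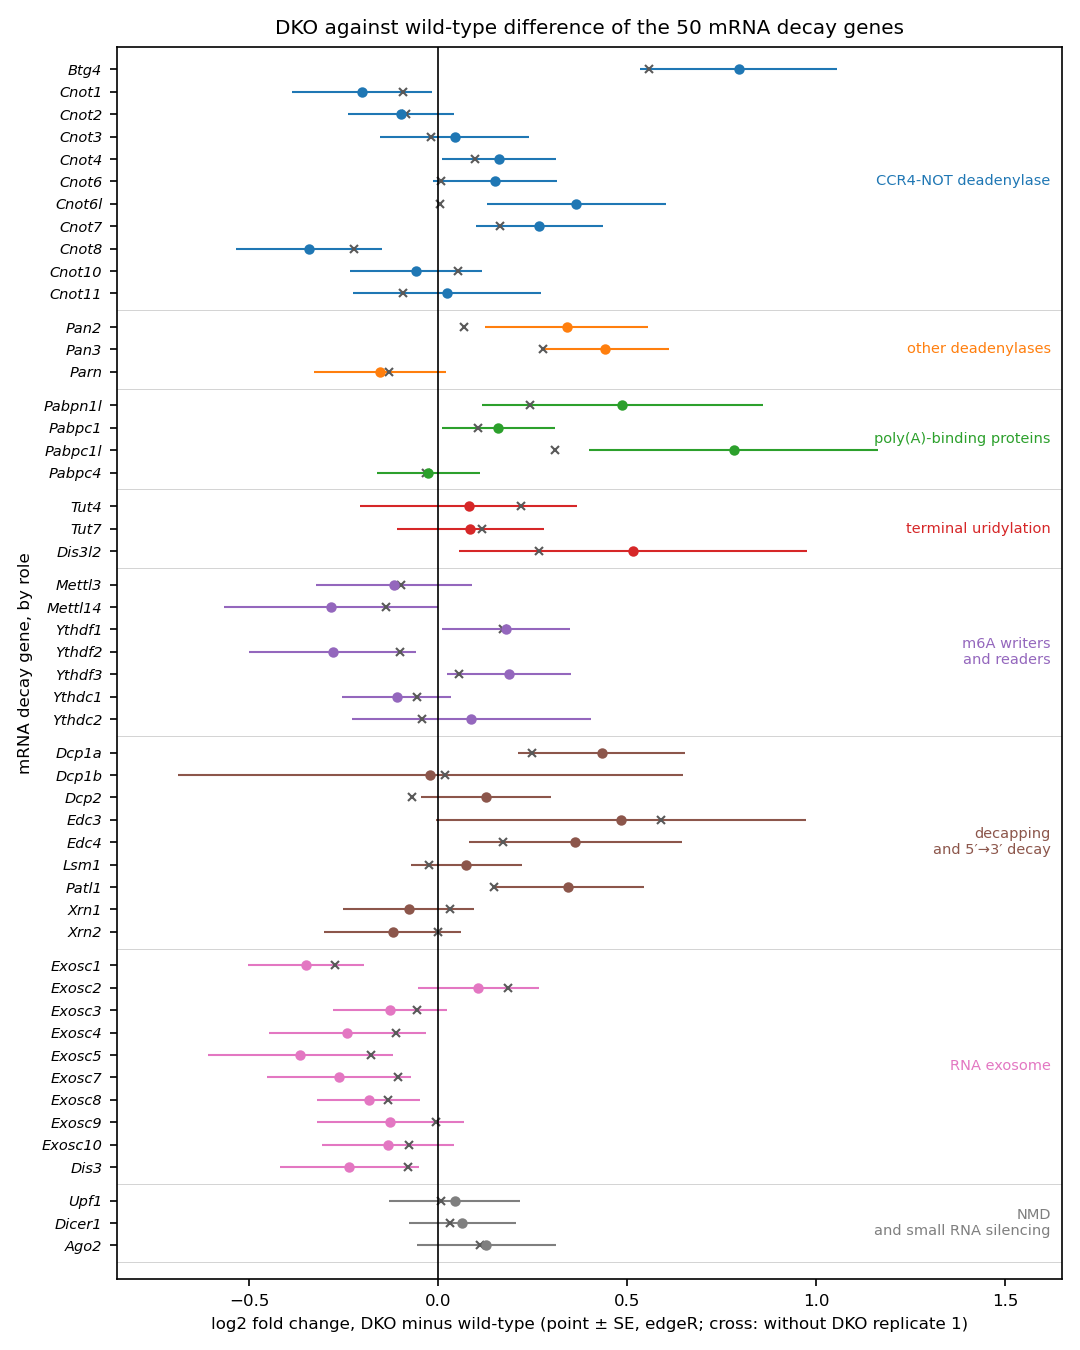
log2FC, DKO minus wild-type, of the 50 genes grouped by role (points, with the SE of the edgeR fit) and the same value without DKO replicate 1 (crosses). Btg4 has the highest value at 0.79 and Exosc5 the lowest at −0.36, 9 of 10 exosome genes lie left of 0, and most crosses lie nearer to 0 than their points.

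Among the 11 genes of the CCR4-NOT deadenylase and its adaptor, 7 had positive and 4 negative fold changes, 0 were called, and the median was 0.04. Btg4 had 5899, 2795, 4481 and 3157 CPM in DKO replicates 1 to 4, against 2487, 2121, 3367 and 1441 CPM in wild-type replicates 1 to 4. DKO replicates 1 and 3 were above every wild-type pool, and the other DKO pools lay within the wild-type range. The log2FC was 0.79 ± 0.26 (SE; adjusted p in edgeR 0.469), and 0.56 without DKO replicate 1. From the lowest to the highest pool, Btg4 differed 2.34-fold among the wild-type pools and 2.11-fold among the DKO pools. No read-length word of the Btg4 exons is shared with another annotated gene.

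Markers of the RNA inherited from the oocyte were summed beside these values. The 12 genes of that list, among them Zp3, Gdf9 and Mos, were all tested, none was at 0, and their summed level was 9186 to 14610 CPM in DKO and 5805 to 9012 CPM in wild-type. All 4 DKO sums were above all 4 wild-type sums, though the lowest DKO and highest wild-type sums were nearly level. Single genes were higher in DKO without overlap in 2.79% of all tested genes. DKO replicate 1 had the highest sum and wild-type replicate 4 the lowest, and the same pools were highest and lowest in Btg4. The same held for Cnot4, Cnot6l, Cnot7, Pan2, Pabpc1l and Dis3l2. Of all tested genes, 27.1% were highest in DKO replicate 1 and 17.3% lowest in wild-type replicate 4. The share with both places is not given here, so the match is not read as particular to these genes. Of the 12, 10 had positive fold changes, 0 were called, and the median was 0.26, or 0.09 without DKO replicate 1. Their part in the Btg4 values was not tested.

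Of the catalytic subunits Cnot6l, Cnot6, Cnot7 and Cnot8, 0 were called. Cnot6l, a nuclease of the complex that is abundant in oocytes, had 455, 217, 219 and 212 CPM in DKO replicates 1 to 4, against 221, 221, 252 and 161 CPM in wild-type replicates. DKO replicate 1 alone was high, and the other 3 DKO pools lay within the wild-type range. The log2FC was 0.37 ± 0.24 (SE; adjusted p in edgeR 0.571), and 0.0059 without DKO replicate 1. Its paralogue Cnot6 had 127, 107, 83.9 and 82.4 CPM in DKO and 81.5, 92.8, 91.3 and 95.2 CPM in wild-type, a log2FC of 0.15, and 0.0083 without DKO replicate 1.

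Cnot7 had 1324, 829, 1198 and 1083 CPM in DKO and 984, 887, 1042 and 771 CPM in wild-type (log2FC 0.27 ± 0.17 SE; adjusted p in edgeR 0.563). Cnot8, the other CAF1-type deadenylase, had 355, 542, 463 and 599.6 CPM in DKO and 656, 609, 449 and 767 CPM in wild-type (log2FC −0.34 ± 0.19 SE; adjusted p in edgeR 0.528). DKO replicate 1 was the highest of all 8 pools in Cnot7 and the lowest in Cnot8. Without it the log2FC was 0.16 for Cnot7 and −0.22 for Cnot8. Of the Cnot8 exon words of read length, 5.14% also occur in the pseudogene Gm18860.

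Of the non-catalytic subunits 0 were called, and Cnot1 had the largest difference. The scaffold Cnot1, which holds the complex together, had a log2FC of −0.20, Cnot2 −0.10, Cnot3 0.04, the ubiquitin ligase Cnot4 0.16, Cnot10 −0.06 and Cnot11 0.02. Their edgeR adjusted p-values ran from 0.688 to 0.979. Of the Cnot3 exon words 9.45% are shared with other genes. Cnot2, at 249, 232, 278 and 281 CPM in DKO and 319, 255, 269 and 271 CPM in wild-type, overlapped between the genotypes. Cnot4 lies 31.9 Mb from Gadd45a and Cnot2 35.55 Mb from Gadd45b on GRCm38. Dcp1b lies 52.14 Mb from Gadd45a and Pan2 47.37 Mb from Gadd45b, and 0 of these 4 were called.

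**Figure D3:**
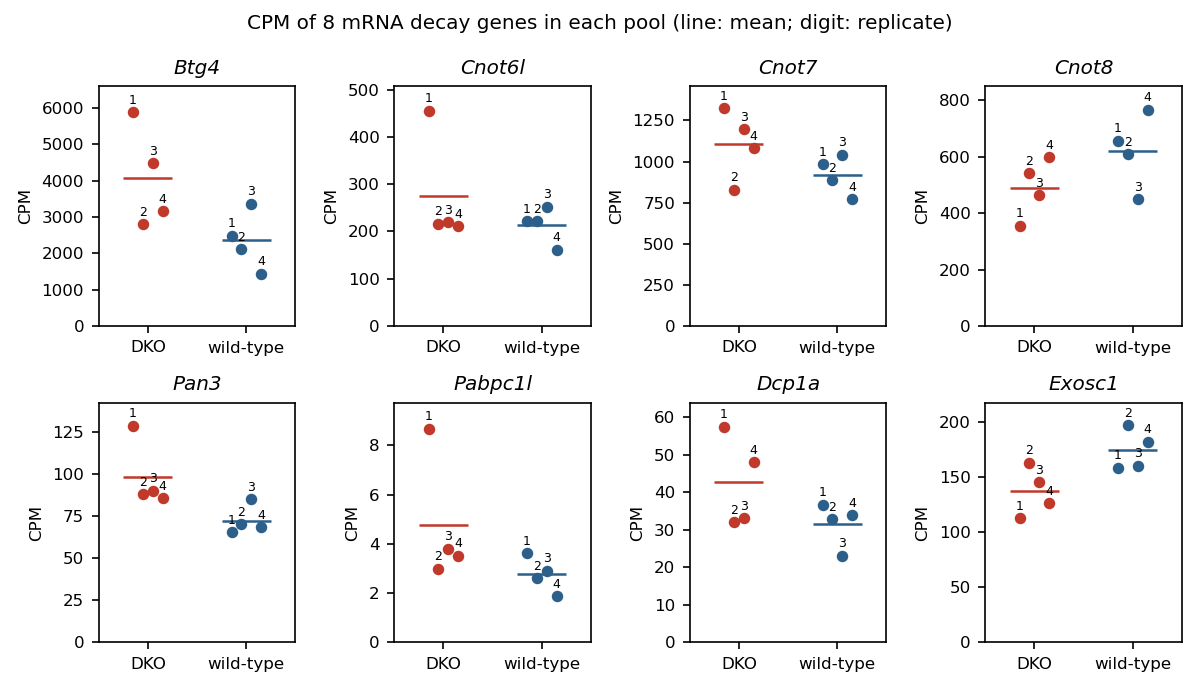
CPM of 8 members in each pool, DKO left and wild-type right, with the replicate number at each point and a line at the mean of each genotype. DKO replicate 1 is the highest point in Btg4, Cnot6l, Cnot7, Pan3, Pabpc1l and Dcp1a and the lowest in Cnot8 and Exosc1.

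Of the other deadenylases, Pan3 was the member whose pools separated by genotype. Pan3, the regulatory subunit that brings the PAN2 nuclease to RNA, had 129, 88.2, 90.1 and 85.8 CPM in DKO replicates 1 to 4, against 65.6, 70.2, 85.2 and 68.6 CPM in wild-type replicates. All 4 DKO pools were above all 4 wild-type pools, though DKO replicate 4 and wild-type replicate 3 were nearly level. The log2FC was 0.44 ± 0.17 (SE; adjusted p in edgeR 0.469; adjusted p in DESeq2 0.353), and 0.28 without DKO replicate 1. Pan2, the nuclease itself, had 63.3, 32.6, 37.1 and 35.0 CPM in DKO and 31.1, 38.9, 32.7 and 30.0 CPM in wild-type. Only DKO replicate 1 was above the wild-type range, and the log2FC of 0.34 was 0.07 without it. Parn, a deadenylase that works on its own, averaged 41.3 ± 7.74 CPM in DKO and 46.0 ± 4.58 CPM in wild-type (mean ± SD of 4 pools; log2FC −0.15).

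Among the 4 poly(A)-binding proteins 3 had positive fold changes, or 4 with library size alone as the scaling, and 0 were called. Pabpc1l, the form found in oocytes and early embryos, had 8.67, 2.99, 3.80 and 3.52 CPM in DKO and 3.63, 2.62, 2.90 and 1.88 CPM in wild-type. DKO replicate 1 was more than 2-fold above every other pool, and the other 3 DKO pools overlapped the wild-type ones. The log2FC was 0.78 ± 0.38 (SE; adjusted p in edgeR 0.489), and 0.31 without DKO replicate 1. Pabpn1l, a nuclear-type paralogue of the oocyte that binds poly(A) and works with BTG4 in mouse embryos, had 4.16, 1.80, 2.52 and 2.94 CPM in DKO and 2.38, 1.43, 2.32 and 2.01 CPM in wild-type. Its log2FC was 0.49 ± 0.37 (SE; adjusted p in edgeR 0.623), on 440 counts over the 8 libraries, and 0.24 without DKO replicate 1.

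The general forms differed less. Pabpc1, the main cytoplasmic poly(A)-binding protein of somatic cells, had 176, 177, 130.1 and 159 CPM in DKO and 144, 124, 148 and 159.8 CPM in wild-type. Pabpc4 had 91.5, 88.2, 85.2 and 101.6 CPM in DKO and 98.7, 92.5, 94.7 and 87.4 CPM in wild-type. Both overlapped between the genotypes. Their log2FC values were 0.16 and −0.03, and that of Pabpc4 was 0.02 with library size alone. Pabpc4 shares 41.2% of its read-length exon words with other genes, nearly all of them with Gm10110, so its counts are uncertain.

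The terminal uridylation genes had small or poorly measured differences, and 0 of 3 were called. Tut4 and Tut7, the uridyltransferases that mark mRNAs with short tails and are needed in mouse oocytes, had log2FC values of 0.08 ± 0.29 and 0.08 ± 0.19 (SE; adjusted p in edgeR 0.935 and 0.885). Tut4 had 15.9, 25.3, 27.3 and 24.7 CPM in DKO and 10.1, 22.2, 30.3 and 25.6 CPM in wild-type, so the spread between wild-type pools was 3.02-fold. Tut7 had 22.0, 23.0, 21.2 and 29.5 CPM in DKO and 17.6, 22.1, 25.2 and 25.5 CPM in wild-type. Both overlapped between the genotypes. Of the Tut7 exon words 8.98% are shared, most of them with Etohd2. Dis3l2 had 2.46, 0.922, 1.59 and 1.74 CPM in DKO and 1.25, 1.38, 1.30 and 0.760 CPM in wild-type. These overlapped, with a log2FC of 0.52 ± 0.46 (SE; adjusted p in edgeR 0.678) on 256 counts in all, or 0.27 without DKO replicate 1.

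Of the 7 writers and readers of m6A 3 had positive and 4 negative fold changes, 0 were called and the median was −0.11, or −0.06 without DKO replicate 1. Ythdf2, a reader that brings CCR4-NOT to methylated mRNA and is needed maternally in the mouse, had 153, 276, 268 and 339 CPM in DKO and 338, 294, 231 and 395 CPM in wild-type. The lowest of the 8 pools was DKO replicate 1, and the others overlapped. The log2FC was −0.28 ± 0.22 (SE; adjusted p in edgeR 0.638), and −0.10 without DKO replicate 1. Of the other cytoplasmic readers, Ythdf1 had 51.1, 59.7, 42.3 and 49.8 CPM in DKO and 47.8, 51.8, 40.8 and 38.7 CPM in wild-type. Ythdf3 had 350.0, 291, 235 and 241 CPM in DKO and 211, 262, 282 and 226 CPM in wild-type. Their pools overlapped, with log2FC values of 0.18 and 0.19. The nuclear reader Ythdc1 had −0.11 and the helicase Ythdc2 0.09.

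Mettl3, the methyltransferase, averaged 14.9 ± 3.08 CPM in DKO and 16.1 ± 1.26 CPM in wild-type (mean ± SD of 4 pools; log2FC −0.12). Its partner Mettl14 had 5.86, 9.53, 6.46 and 13.3 CPM in DKO and 13.3, 9.56, 8.31 and 11.6 CPM in wild-type. DKO replicates 1 and 3 were low and DKO replicate 4 level with the highest wild-type pool, for a log2FC of −0.28 ± 0.28 (SE; adjusted p in edgeR 0.718). Of the Mettl3 exon words 14.0% are shared, most of them with the neighbouring gene Tox4.

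In decapping and 5′-to-3′ decay 6 of 9 genes had positive fold changes, 0 were called and the median was 0.13, or 0.03 without DKO replicate 1. Dcp1a, the activator of the decapping enzyme, which is itself stored in oocytes, had 57.5, 32.1, 33.1 and 48.1 CPM in DKO and 36.7, 32.8, 23.1 and 33.9 CPM in wild-type. DKO replicates 1 and 4 were above the wild-type pools and DKO replicates 2 and 3 among them. The log2FC was 0.43 ± 0.22 (SE; adjusted p in edgeR 0.496), and 0.25 without DKO replicate 1. The decapping enzyme Dcp2 averaged 109 ± 28.2 CPM in DKO and 100.1 ± 4.6 CPM in wild-type (mean ± SD of 4 pools), with a log2FC of 0.13 that was −0.07 without DKO replicate 1.

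The scaffold Edc4 and the decapping activator Patl1 had log2FC values of 0.36 and 0.34, which were 0.17 and 0.15 without DKO replicate 1. Lsm1, of the ring that binds shortened tails, averaged 245 ± 32.3 CPM in DKO and 233 ± 24.6 CPM in wild-type (mean ± SD of 4 pools; log2FC 0.07). Edc3 had 1.83, 3.43, 2.17 and 2.23 CPM in DKO and 1.51, 0.689, 3.62 and 1.07 CPM in wild-type, and the genotypes overlapped. Dcp1b had 0.715, 0.835, 0.619 and 0.979 CPM in DKO and 0.95, 0.23, 1.74 and 0.268 CPM in wild-type, a 7.58-fold spread over the wild-type pools. Their log2FC values of 0.48 ± 0.49 and −0.02 ± 0.67 (SE; adjusted p in edgeR 0.721 and 0.994) have 95% intervals that reach beyond 2-fold. Of the Edc3 exon words 19.1% are shared with its neighbour Clk3. The exonucleases Xrn1, in the cytoplasm, and Xrn2, in the nucleus, had log2FC values of −0.08 and −0.12, and both were lowest in DKO replicate 1.

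In the RNA exosome nearly all members had the same sign, and DKO replicate 1 was the extreme pool. Of 10 genes, 9 had negative fold changes, with a median of −0.21, and 0 were called. The count was the same with RLE scaling, with library size alone and with each library left out in turn, and was 7 of 10 without both libraries numbered 1. DKO replicate 1 was the lowest of the 8 pools in all 10 genes, where it was the lowest in 25.1% of all tested genes. Without it 9 of 10 were still negative, with a median of −0.09. Relative to each gene's mean, the median exosome gene stood at −0.47, 0.10, −0.07 and −0.08 log2 units in DKO replicates 1 to 4 and at 0.12, 0.05, −0.07 and 0.26 in wild-type replicates 1 to 4. By gene, 0 of the 10 separated fully by genotype, where 2.55% of all tested genes were lower in DKO without overlap. DKO replicates 1, 3 and 4 were below every wild-type pool in Exosc1, Exosc4, Exosc7 and Exosc8. The share of all tested genes with that pattern is not given here, so it is not read as particular to the exosome.

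Exosc1, a cap subunit of the complex, had 113, 163, 145 and 126 CPM in DKO replicates 1 to 4, against 158, 197, 160 and 182 CPM in wild-type replicates. Only DKO replicate 2 reached the wild-type range, and the 3 other DKO pools were below it. The log2FC was −0.35 ± 0.15 (SE; adjusted p in edgeR 0.478; unadjusted p in edgeR 0.039), and −0.27 without DKO replicate 1. Exosc5, a ring subunit, had 43.9, 107, 73.8 and 84.1 CPM in DKO and 106, 97.7, 67.0 and 128 CPM in wild-type, with a log2FC of −0.36 ± 0.25 (SE; adjusted p in edgeR 0.583). DKO replicate 1 was far below the rest, and without it the log2FC was −0.18.

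The catalytic subunits Dis3 and Exosc10 had log2FC values of −0.24 and −0.13, and the ring and cap subunits Exosc3, Exosc4, Exosc7, Exosc8 and Exosc9 had −0.13, −0.24, −0.26, −0.18 and −0.13. Exosc8 was the most even member over the wild-type pools, which differed by 1.082-fold, at 182, 238, 210 and 198 CPM in DKO and 245, 226, 238 and 232 CPM in wild-type. Exosc2 was the exception in sign, at 53.9 ± 8.28 CPM in DKO and 50.1 ± 3.21 CPM in wild-type (mean ± SD of 4 pools; log2FC 0.11). Exosc4 and Exosc9 share 14.7% and 8.14% of their exon words with the neighbours Oplah and Ccna2. Exosc2 shares 9.22%, most of them with Gm13427.

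In nonsense-mediated decay and small RNA silencing the 3 members were close to level. Upf1, the helicase of nonsense-mediated decay, averaged 29.5 ± 3.85 CPM in DKO and 28.6 ± 2.51 CPM in wild-type, and Dicer1, which cuts small RNA precursors, 90.0 ± 4.33 CPM in DKO and 86.1 ± 8.78 CPM in wild-type (mean ± SD of 4 pools). Ago2, the slicing Argonaute, had 47.8, 45.5, 46.0 and 48.6 CPM in DKO and 44.6, 36.0, 33.6 and 57.7 CPM in wild-type. The DKO pools of Ago2 lay within the wild-type range, and the genotypes overlapped in all 3 genes. The log2FC values were 0.04 for Upf1, 0.06 for Dicer1 and 0.13 ± 0.18 (SE; adjusted p in edgeR 0.808) for Ago2.

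Across the list, DKO replicate 1 was often at the extreme of the 8 pools. It was the highest pool in 17 members and the lowest in 18, 35 of the 50 in all, where it was at an extreme in 52.2% of all tested genes. It was highest in 6 of 11 CCR4-NOT genes, 5 of 9 decapping genes and 2 of 4 poly(A)-binding genes, and in 27.1% of all tested genes. It was lowest in 10 of 10 exosome genes, 3 of 11 CCR4-NOT genes, 2 of 9 decapping genes and 3 of 7 m6A genes. Wild-type replicate 4 came next, at an extreme in 40.0% of the members and 34.8% of all tested genes. Without DKO replicate 1 the log2FC of 44 of the 50 members was nearer to 0, as it was for 9886 of the 14970 tested genes. The median absolute log2FC of the members was 0.16, and 0.10 without it, against 0.27 and 0.20 for all tested genes. The pool had 23 embryos, as did wild-type replicate 1, and its summed oocyte-inherited markers were the highest of the 8. The part of either in these values was not tested.

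**Figure D4:**
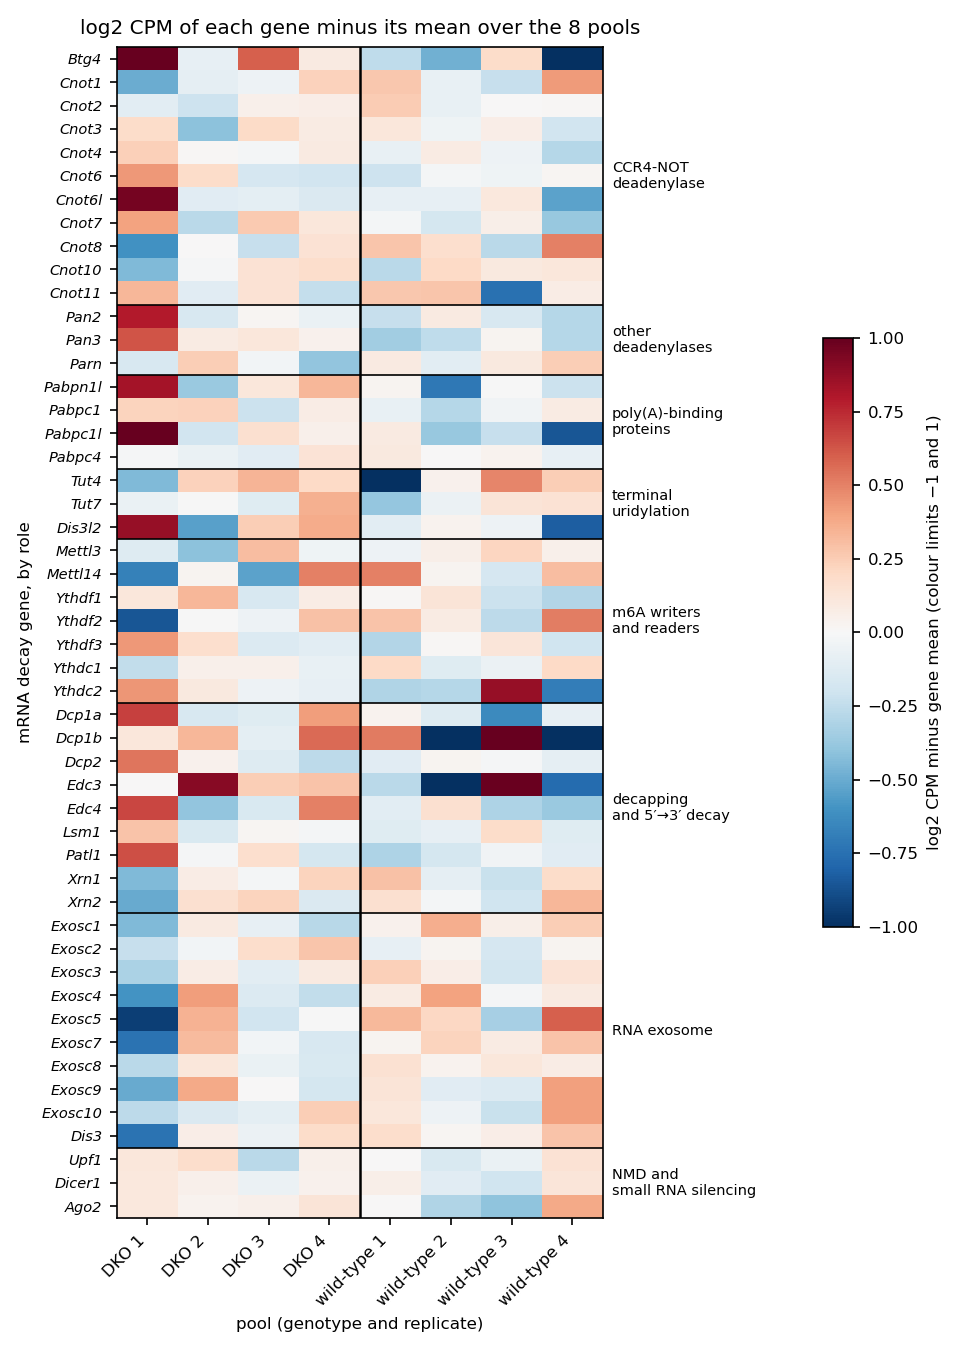
log2 CPM of each of the 50 genes minus its mean over the 8 pools, with pools as columns (DKO left of the line, wild-type right of it), genes as rows by role, red above and blue below the mean, and colours limited to −1 and 1. In the column of DKO replicate 1 the 10 exosome genes are all blue, and Btg4, Cnot6l, Pan2 and Pan3 are red.

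Because related enzymes can stand in for each other, the balance within 8 pairs of paralogues was compared as the log2 ratio of their CPM in each pool. Exact two-sided permutation of the pools has 70 ways to assign 4 against 4 and a smallest possible p of 0.0286. It passed for 0 of the 8 pairs, with adjusted p from 0.571 to 1.0, and 0 were under 0.05 before adjustment. A single pair at the smallest p could not pass after adjustment over 8 pairs, so the adjusted test cannot show that a balance is unchanged. The genotypes overlapped in all 8. Per kilobase, Cnot6l exceeded Cnot6 in all 8 pools, by 1.69-fold in DKO and 1.503-fold in wild-type on average, and its ratio was 0.17 log2 units higher in DKO (exact p = 0.486). Dcp1a exceeded Dcp1b 36.9-fold in DKO and 35.3-fold in wild-type, and the ratio was 0.06 log2 units higher in DKO (exact p = 1.0).

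The largest shifts were in pairs that DKO replicate 1 drew apart. The log2 ratio of Cnot7 to Cnot8 was 1.90, 0.61, 1.37 and 0.85 in DKO replicates 1 to 4 and 0.58, 0.54, 1.21 and 0.0061 in wild-type replicates. DKO was higher by 0.60 (exact p = 0.143), or 0.36 without DKO replicate 1 (exact p = 0.314). In CPM Cnot7 was thus the higher in all 8 pools, while per kilobase of annotated exon it was the higher in 3 of the 8. The order of these 2 genes therefore depends on the exon lengths used. Pabpc1l stood far below its somatic paralogues, at 0.0664 of Pabpc1 per kilobase in DKO and 0.0465 in wild-type. Its log2 ratio was higher in DKO by 0.51 against Pabpc1 (exact p = 0.286) and by 0.70 against Pabpc4 (exact p = 0.0857), and by 0.23 and 0.37 without DKO replicate 1.

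Among the cytoplasmic m6A readers, Ythdf2 exceeded Ythdf1 per kilobase in all 8 pools, 3.58-fold in DKO and 5.03-fold in wild-type, and exceeded Ythdf3 in 6 of 8, 1.06-fold in DKO and 1.48-fold in wild-type. Both log2 ratios were lower in DKO by the same amount, at −0.49 (exact p = 0.229 and 0.371), and were −0.25 and −0.14 without DKO replicate 1. Tut7 was below Tut4 per kilobase in 7 of 8 pools, at 0.612 of its level in DKO and 0.644 in wild-type, with a difference of −0.07 log2 units (exact permutation, adjusted p = 0.947). In CPM their mean log2 ratio was 0.06 in DKO and 0.13 in wild-type, so this order too depends on the exon lengths used.

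**Figure D5:**
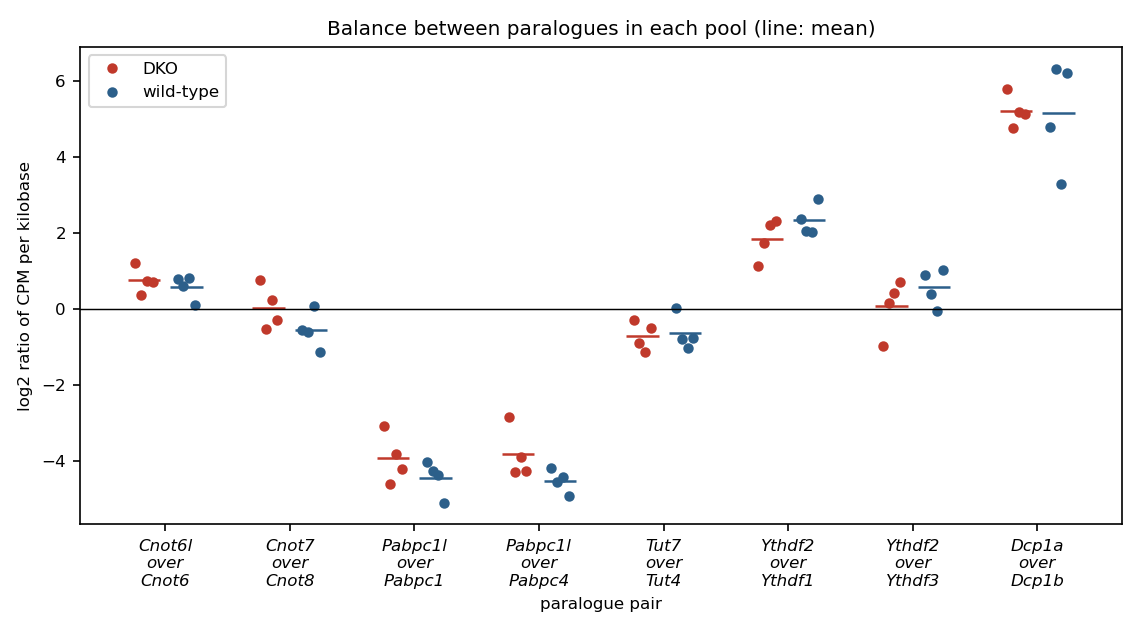
log2 ratio of CPM per kilobase of the first over the second gene of 8 paralogue pairs, with 4 DKO pools (red, left of each pair) and 4 wild-type pools (blue, right) and a line at each mean. The genotypes overlap in every pair, and the mean ratio of Cnot7 to Cnot8 is 0.04 in DKO and −0.56 in wild-type.

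The rest of the pathway was read from a list of 86 further genes of the same functions, of which 85 were found, 81 were tested and 0 were called by edgeR, DESeq2 or limma-voom. Fold changes were positive for 42 and negative for 39, with a median log2FC of 0.03. At an unadjusted p under 0.05 edgeR gave 5 higher and 1 lower in DKO (7.41%, against 10.2% of all tested genes), and 5 (6.17%) did not overlap between genotypes, against 5.34% of all tested genes. Mphosph6, an exosome cofactor, had 6619, 3502, 4773 and 2847 CPM in DKO and 2586, 2752, 3645 and 2043 CPM in wild-type, a log2FC of 0.69 ± 0.24 (SE; adjusted p in edgeR 0.469). DKO replicates 1 and 3 were above every wild-type pool, and its sign was the opposite of that of 9 of the 10 exosome subunits. Without DKO replicate 1 its log2FC was 0.42.

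Angel2, a relative of the CCR4-type deadenylases, had 782, 421, 542 and 648 CPM in DKO and 419, 460.2, 440.1 and 359 CPM in wild-type. Pnrc1, a decapping coactivator, had 263, 128, 160.0 and 171 CPM in DKO and 112, 119.8, 157 and 96.6 CPM in wild-type. In both, DKO replicates 1, 3 and 4 were above every wild-type pool, and the log2FC values were 0.51 ± 0.18 and 0.57 ± 0.21 (SE; adjusted p in edgeR 0.469 for both). Without DKO replicate 1 they were 0.35 for Angel2 and 0.33 for Pnrc1. Skic8, of the complex that feeds mRNA into the cytoplasmic exosome, had 23.8, 79.5, 55.8 and 39.1 CPM in DKO and 82.7, 82.3, 76.4 and 97.4 CPM in wild-type. DKO replicate 2 alone reached the wild-type range, and the log2FC was −0.77 ± 0.27 (SE; adjusted p in edgeR 0.469), or −0.55 without DKO replicate 1. Of its read-length exon words 31.5% are shared with Dnaja4, so its counts are uncertain.

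Cbll1, of the m6A writer complex, had 231, 358, 388 and 429 CPM in DKO and 427, 448, 416 and 554 CPM in wild-type, and shares 11.2% of its exon words with Gm29542. Ddx6, the helicase that represses and helps decap stored mRNA, had 49.6, 60.04, 68.7 and 75.6 CPM in DKO and 80.3, 77.2, 88.3 and 74.4 CPM in wild-type. In both, DKO replicates 1 to 3 were below every wild-type pool and DKO replicate 4 was not. The log2FC values were −0.39 ± 0.19 for Cbll1 and −0.33 ± 0.16 for Ddx6 (SE; adjusted p in edgeR 0.489 for both). Without DKO replicate 1 both were −0.24.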

How the data were processed

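RNA-seq of 8 pools of 2-cell embryos gave 1 table of whole-number counts per gene and library, which the authors deposited without normalization. Per the labels' protocols, cDNA was made from polyA RNA with a SMART-Seq kit in 11 PCR cycles, libraries took 11 more, and all were sequenced as single reads of 85 cycles on 1 flow cell. Neither step as described marks molecules, so precision from counting is an upper limit. The submitters' processing notes name STAR 2.5.2b and featureCounts 1.5.1, besides FastQC 0.11.5, bcl2fastq 2.19.1 and DESeq2 1.18.1, and the builds NCBIM37 and mm9. How strand and multiply mapped reads were counted is not stated there. Shared sequence was therefore measured as the percent of a gene's 85-base exon words, on either strand, that occur in the exons of another annotated gene.

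The members, gene lists and tests were chosen with earlier results of these data known. Of 37310 gene identifiers 32620 matched a symbol. Skic2, Skic3 and Skic8 were matched under the older symbols of the reference tables, and Exosc6 is not analysed here. Low genes were removed by filterByExpr, libraries were TMM-scaled, and counts were tested with the robust quasi-likelihood test of edgeR 4.0.16 in R 4.3.3, with Benjamini-Hochberg adjustment over all 14970 tested genes and a threshold of 0.05. All 8 libraries entered without covariates, and the common biological coefficient of variation was 0.313. CPM values are TMM-scaled, log2 CPM used a prior count of 2, and exon lengths came from GENCODE M21 (GRCm38), so positions on GRCm38 are not those of the build used for counting. Each exon length covers all annotated exons of a gene and not the transcript expressed, so orders per kilobase depend on the annotation. Pools of a genotype are separate litters, their log2 CPM correlated at r of 0.952 to 0.972 across genes, and every pair differed beyond counting error (chi-square over its degrees of freedom at least 17.9). Paralogue ratios were compared by exact permutation.

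Values in every library are given for Btg4, for the member with the smallest p in each role, for the 5 largest and 5 smallest fold changes among members averaging 1 log2 CPM or more, for members without overlap, for the 3 highest and 3 lowest per kilobase, for paralogues and, of the other pathway genes, for up to 3 with the smallest p in each direction; other values were chosen after they were seen. Alternatives were DESeq2 1.42.0, limma-voom 3.58.1 with quality weights, RLE scaling or library size alone, no filter or only genes averaging at least 10 CPM, thresholds of 0.1 and 0.01, a replicate block, the log2 number of embryos as covariate, each library left out in turn and both libraries numbered 1 left out.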

Additional observations from a re-analysis of the deposited data

Results flagged for a closer look

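In groups of 4 pools, a single pool can lie so far from its nearest neighbour that the gap takes up most of the range of the group. Of 76 groups of 4 checked for this, 3 had such a pool, and all 3 were DKO replicate 1. Chance flags about 1 in 20 groups. Cnot6l, a CCR4-NOT nuclease, had 455 CPM in DKO replicate 1, where the gap to the next DKO pool was 0.97 of the DKO range. Pan3, the regulatory subunit of PAN2, had 129 CPM there, with a gap of 0.899 of the range. Pabpc1l, the embryonic poly(A)-binding protein, had 8.67 CPM there, with a gap of 0.856 of the range. In all 3 genes the pool was high, and the 3 other DKO pools of Cnot6l and Pabpc1l overlapped the wild-type pools while those of Pan3 did not.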

How the results depend on the processing

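No member and no other pathway gene was called under any of the 17 alternative gene fits or at thresholds of 0.1 or 0.01. The number of genes called was 4 in edgeR, 49 with DESeq2, 7 with no filter on low counts and 1 at a mean of at least 10 CPM. Gadd45a passed with DESeq2 only (log2 fold change −1.10, adjusted p = 0.00085). The count of members at an unadjusted p under 0.05, an alternative added after the data were seen, was 3, and was 6 with the embryo covariate, 1 to 9 with each library left out (1 without DKO replicate 1 or wild-type replicate 2, 9 without DKO replicate 2, 5 without wild-type replicate 3) and 1 without both libraries numbered 1. Of these alternatives, a count over all tested genes is given here only without DKO replicate 1 (858 of 14970). The members' median log2 fold change of 0.05 was 0.11 with library size alone and 0.0067 to 0.0751 with each library left out, and that of the other pathway genes was 0.085 with library size alone.

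Among the members with values in every library and the pairs, these signs turned, none of them in a called result. Dcp1b was 0.65 with limma-voom, 0.011 with library size alone, 0.37 with the replicate block, 0.10 with the embryo covariate, 0.12 without both libraries numbered 1 and −0.32 to 0.69 with each library left out. Pabpc4 was 0.025 with library size alone, 0.0088 at a mean of at least 10 CPM, 0.0032 without both libraries numbered 1 and −0.079 to 0.0096 with each library left out. Tut7 was −0.0023 with the covariate and −0.032 to 0.14 with each library left out. Tut4 was −0.057 with the covariate, −0.014 without both libraries numbered 1 and −0.16 to 0.27 with each library left out. Cnot6 was −0.030 and Ythdf3 −0.0038 without both libraries numbered 1. The ratio of Tut7 to Tut4 ran from −0.21 to 0.15 with each library left out, and that of Dcp1a to Dcp1b from −0.55 to 0.45, and was −0.014 with a prior count of 0.5. Of the other members, Cnot3, Cnot10, Cnot11, Ythdc1, Ythdc2, Dcp2, Lsm1, Xrn1, Xrn2, Exosc3, Exosc9 and Upf1 also turned sign with 1 library or both libraries numbered 1 left out. The CCR4-NOT median of 0.04 was −0.0051 without DKO replicate 3, and the uridylation median of 0.085 was −0.021 without wild-type replicate 1 and −0.0023 with the embryo covariate. The causes were not tested.

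Same-numbered pools correlated weakly in their deviations, at r of 0.0024 to 0.0780, 0 of 4 over 0.1, and 2 of 4 matched their own number best. Whether replicate numbers pair the samples cannot be decided from these values. With the replicate block 4 genes and 0 members were called. Depth limits Dcp1b, Dis3l2, Edc3, Pabpn1l and Pabpc1l, with 143 to 675 counts over all libraries.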
